A study of Bos taurus and other sequences with 9 samples.

Results

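The tRNA genes for aspartate, asparagine and tyrosine were followed through 9 culture media samples from which extracellular vesicles (EVs) had been isolated and small RNA sequenced. Members were all rows of the small non-coding RNA table classed as tRNA whose name carries Asp, Asn or Tyr, which gave 56 of 1361 loci, or 56 of 530 tRNA loci. They comprised 18 tRNA-Asp loci (anticodon GTC), 24 tRNA-Asn loci (GTT) and 14 tRNA-Tyr loci. Of the tRNA-Tyr loci, 13 had the anticodon GTA and 1, tRNA14-TyrATA on chromosome 2, had ATA.

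Transfer RNAs whose anticodon begins with G followed by U (written T in the gene names) read codons ending in C or U. In animals the G at this wobble position is exchanged for queuosine, a modified base whose precursor queuine comes from the diet and gut bacteria and is inserted by the enzyme tRNA-guanine transglycosylase. This family consists of tRNA-Asp, tRNA-Asn, tRNA-Tyr and tRNA-His. In vertebrates the queuosine of tRNA-Asp is further linked to mannose and that of tRNA-Tyr to galactose, whereas tRNA-Asn and tRNA-His keep it without a sugar. The sequencing counted short RNA reads and did not measure the modification. The paper describes the tRNA reads as tRNA fragments, so that counts are not levels of whole tRNAs. The 11 tRNA-His loci were used as the closest comparison.

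The media were regular fetal bovine serum (FBS), commercial exosome-depleted FBS from System Biosciences (SBI-dFBS), FBS depleted of EVs by ultracentrifugation (UC-dFBS) or by ultrafiltration (UF-dFBS), and StemPRO, a defined serum-free medium for mesenchymal stem cells. Each serum was added to DMEM/F12 medium with antibiotics. Each serum-based medium had 2 samples. StemPRO was sequenced once and has no replicate. Sample 1 of FBS, UC-dFBS and UF-dFBS came from Sigma-Aldrich serum and sample 2 from Gibco serum, whereas the SBI-dFBS samples were separate lots. The SD of a medium therefore includes the difference between sera, and p-values measure only the spread between these samples. The media contained no cultured cells, and less RNA per vesicle cannot be told apart from fewer vesicles or from less RNA outside vesicles. The paper did not show that the RNA was bound to EVs, and it considers a mixture of EV-bound and cell-free RNA more likely. The genome positions are those of human GRCh37, while the sera are bovine, so that a locus stands for reads that matched the human gene. In the bovine RefSeq annotation (ARS-UCD2.0) the same anticodons had 25 genes for Asp, 28 for Asn, 64 for Tyr and 32 for His.

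Total counts were lowest in StemPRO (6679) and UF-dFBS-2 (82513) and highest in UF-dFBS-1 (6867736). Values are given as counts or as spike-in normalized counts, the authors' counts divided by a factor from RNA added to each sample. According to the paper, the spike-ins were of miRNA size, so that normalization is likely less accurate for other small RNAs, which were mostly longer. One count was worth 0.265 normalized counts in SBI-dFBS-2, the most of any sample, and 0.00926 in StemPRO, the least. Intervals are 95% and cover counting error only (exact Poisson for counts, Wilson for shares).

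The 3 families had the same kind of anticodon but very different levels. In FBS, tRNA-Asp reached 2198 ± 1791 spike-in normalized counts (SD, n = 2), whereas tRNA-Asn reached 2.91 ± 2.02 and tRNA-Tyr 2.51 ± 0.0505. Summed over loci and divided by gene length, tRNA-Asp was 821 and 649 times tRNA-Asn in FBS-1 and FBS-2, and 1768 and 466 times tRNA-Tyr. In StemPRO these ratios were 1.96 and 7.43. As the reads are fragments, their counts need not scale with gene length. Without that division tRNA-Asp was 799 and 632 times tRNA-Asn in FBS-1 and FBS-2, and 1399 and 366 times tRNA-Tyr. The undivided ratios in StemPRO were 1.90 and 5.85. The families thus stood far apart in regular serum and near each other in the defined medium. Over the 8 serum-based samples the Asp to Asn ratio per base was lowest in UF-dFBS-2, at 16.6, and highest in SBI-dFBS-2, at 968.

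**Figure D1:**
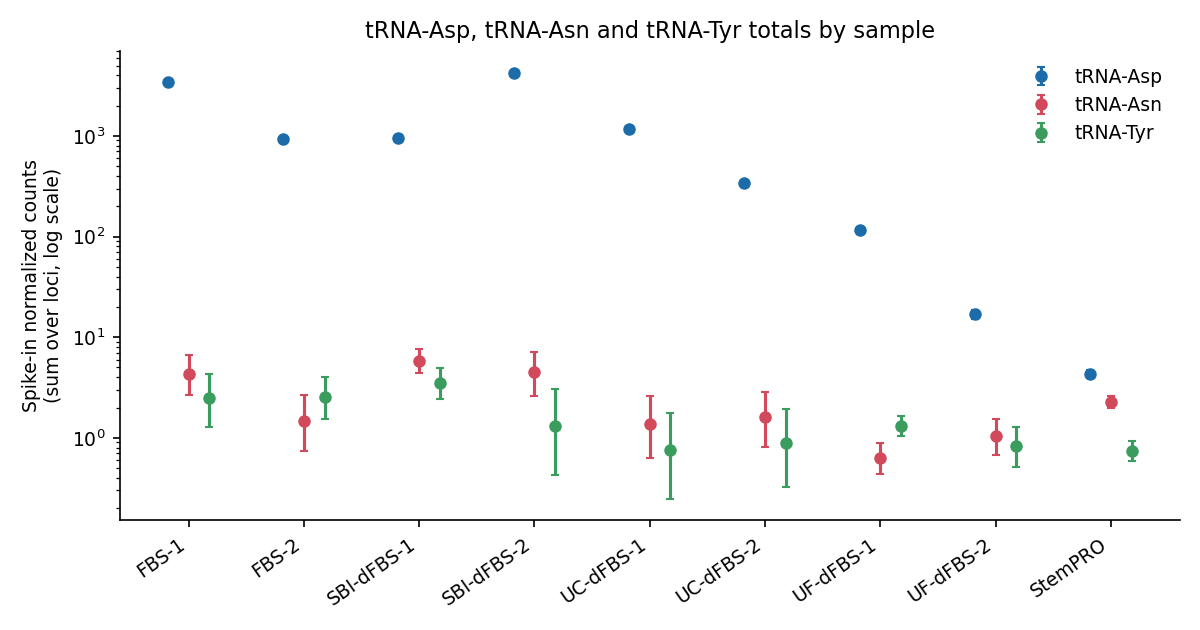
Spike-in normalized counts summed over the loci of tRNA-Asp (18 loci), tRNA-Asn (24) and tRNA-Tyr (14) in each of the 9 samples, on a log axis, with exact Poisson 95% intervals. tRNA-Asp ranges from 4239 in SBI-dFBS-2 and 3465 in FBS-1 down to 4.33 in StemPRO. tRNA-Asn stays between 0.634 and 5.86 and tRNA-Tyr between 0.740 and 3.54.

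tRNA-Asp, which carries aspartate to the ribosome, was the only one of the 3 families with deep counts. The deposited counts were 16783 in FBS-1 and 6947 in FBS-2. They were 7618 and 2344 after ultracentrifugation, 6435 and 404 after ultrafiltration, 8570 and 16012 in the commercial lots, and 468 in StemPRO. On the spike-in scale this gave 3465 and 932 for FBS, 1165 and 344 for UC-dFBS, 117 and 16.8 for UF-dFBS, 948 and 4239 for SBI-dFBS, and 4.33 (3.95 to 4.74) for StemPRO. Both UF-dFBS samples were below every other serum-based sample, and StemPRO was below both of them. The totals of the other media overlapped.

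Counts were spread over the tRNA-Asp genes in a regular pattern. In FBS-1, 13 of the 18 loci had between 1159 and 1481 counts and held 99.9% of the family, and the other 5 had at most 11 counts each. Of the 13, 9 were almost even, namely tRNA69, tRNA72, tRNA75, tRNA78 and tRNA81 on chromosome 1, tRNA10 and tRNA12 on chromosome 12, tRNA38 on chromosome 17 and tRNA144 on chromosome 6. The 5 on chromosome 1 lie on the minus strand in an array whose starts are 7381 to 7418 bases apart, from chr1:161410615-161410686 to chr1:161440205-161440276. The highest of these 9 loci exceeded the lowest by 1.08 times in FBS-1 and by 1.84 times in UF-dFBS-2, and by 2.42 times in StemPRO, where they had 12 to 29 counts. Their median was 255 and 64.3 normalized counts in FBS, 84.0 and 25.1 after ultracentrifugation, 8.46 and 1.04 after ultrafiltration, 67.9 and 326 in SBI-dFBS, and 0.167 in StemPRO. The subsets were formed after the values had been seen and carry no test. How reads that match several identical genes were placed is not given in the sources used here, so that the even counts may be shared reads, and single loci of the 9 are uncertain.

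Another 3 loci had a higher mean count than these 9 in each sample, by a margin that varied between samples. They were tRNA4-AspGTC (chr12:96429799-96429870, plus strand), tRNA45-AspGTC (chr6:27447453-27447524, plus) and tRNA48-AspGTC on chromosome 6 (chr6:27471523-27471594, plus). Their mean count was 1.20 times that of the 9 in FBS-1 and 1.15 times in FBS-2, 1.35 times in both UC-dFBS samples, 1.01 and 1.24 times in those of UF-dFBS, 1.38 and 1.07 times in the SBI-dFBS lots, and 1.95 times in StemPRO.

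**Figure D2:**
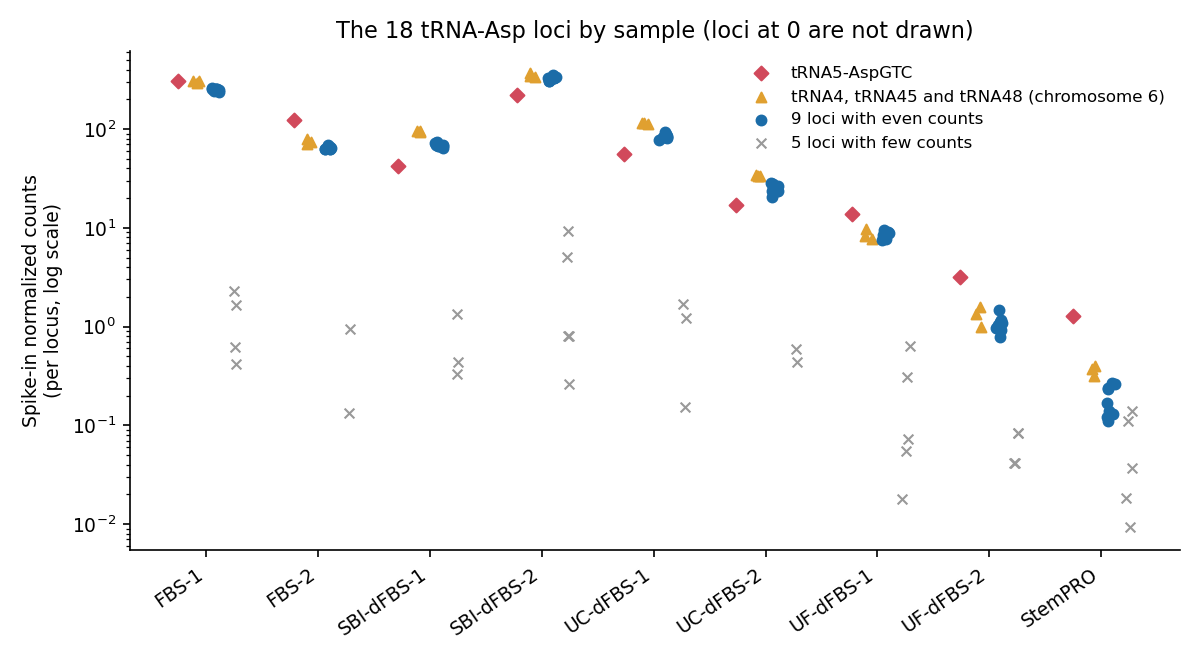
Spike-in normalized counts of each tRNA-Asp locus by sample on a log axis, with 1 point per locus and loci at 0 left out. The 9 even loci cluster closely in FBS, within 1.08 and 1.09 times of each other, and spread 2.42-fold in StemPRO, and tRNA5-AspGTC lies above their median of 1.04 in UF-dFBS-2, at 3.16, and below their median of 67.9 in SBI-dFBS-1, at 42.6.

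tRNA5-AspGTC (chr12:98897281-98897352, plus strand, 72 bases) had the highest mean of any member in FBS and did not keep step with the other loci. Its spike-in normalized counts were 306 and 123 in FBS, 56.3 and 17.0 after ultracentrifugation, 13.8 and 3.16 after ultrafiltration, 42.6 and 219 in SBI-dFBS, and 1.27 in StemPRO. Relative to the median of the 9 even loci it was at 1.20 and 1.91 in FBS, at 0.670 and 0.678 in UC-dFBS, at 1.63 and 3.04 in UF-dFBS, at 0.627 and 0.672 in SBI-dFBS, and at 7.61 in StemPRO. It stood above the even loci in both FBS samples, both UF-dFBS samples and StemPRO, and below them in both SBI-dFBS and both UC-dFBS samples. The groups did not overlap in this ratio between FBS and UC-dFBS or between FBS and SBI-dFBS. As the subsets were formed after the values had been seen, this carries no test. Nor was it particular to tRNA5-AspGTC. The mean of the 3 loci above, relative to the 9, was 1.20 and 1.15 in FBS and 1.35 in both UC-dFBS samples, also without overlap.

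As a share of the tRNA-Asp counts, tRNA5-AspGTC held 8.82% (8.40 to 9.26) in FBS-1 and 13.2% (12.4 to 14.0) in FBS-2. The shares were 4.49% and 5.17% in SBI-dFBS and 4.83% and 4.95% in UC-dFBS. They were 11.8% (11.0 to 12.6) and 18.8% (15.3 to 22.9) in UF-dFBS and 29.3% (25.3 to 33.6) in StemPRO. The 4 samples of SBI-dFBS and UC-dFBS thus lay closely together, below the FBS, UF-dFBS and StemPRO samples.

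**Figure D3:**
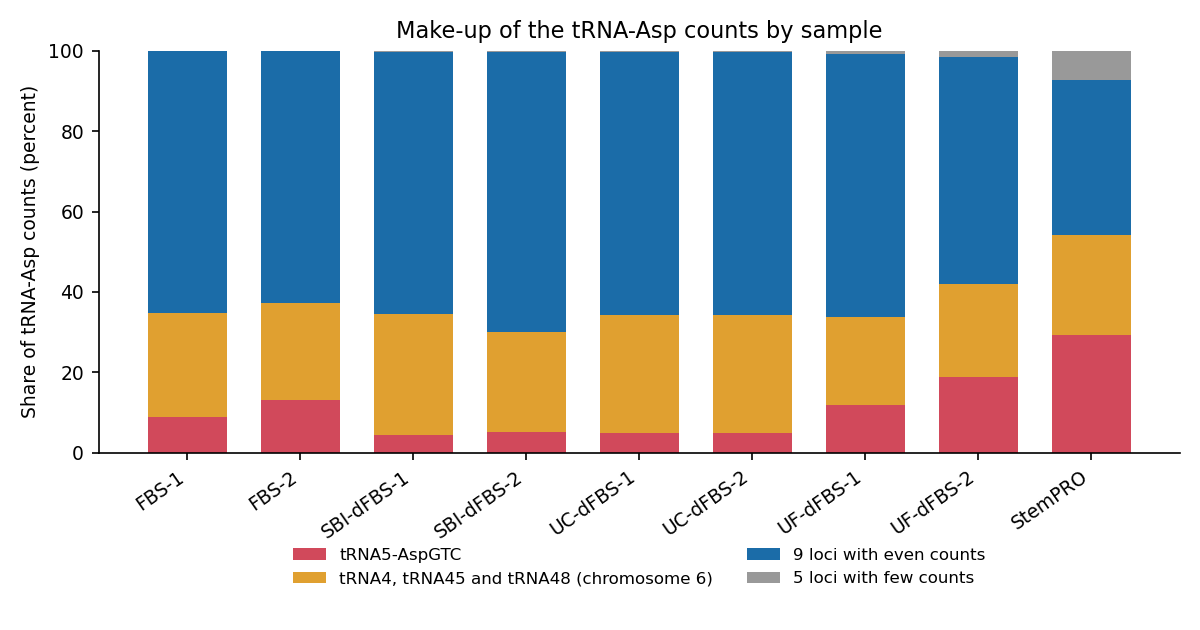
Share of the tRNA-Asp counts of each sample held by tRNA5-AspGTC, by tRNA4, tRNA45 and the chromosome 6 tRNA48, by the 9 even loci and by the 5 loci with few counts, as stacked bars that sum to 100%. The share of tRNA5-AspGTC is 4.49% to 5.17% in SBI-dFBS and UC-dFBS and 29.3% in StemPRO, where the 5 sparse loci reach 7.26%.

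The 5 sparse tRNA-Asp loci held 0.115% of the family's counts in FBS-2, the lowest share, 1.49% in UF-dFBS-2, the highest of the serum-based samples, and 7.26% in StemPRO. Those with the most counts were tRNA46-AspGTC (chr1:161501915-161501986, plus) and tRNA6-AspGTC (chr9:77517990-77518061, minus), named after their values had been seen. tRNA46-AspGTC had 8 and 0 counts in FBS, 8 and 4 after ultracentrifugation, 35 and 1 after ultrafiltration, 4 and 35 in SBI-dFBS, and 12 in StemPRO. tRNA6-AspGTC ranged from 2 to 19 counts over the 9 samples. The other 3, tRNA22-AspGTC on chromosome 5, tRNA7-AspGTC on chromosome 12 and tRNA48-AspGTC on chromosome 1, had at most 4 counts in any sample.

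Ultrafiltration against regular FBS gave the lowest tRNA-Asp levels among the sera. The family total was 66.7 ± 70.5 normalized counts in UF-dFBS (n = 2), 33.0-fold below FBS. Within the Sigma-Aldrich serum it was 29.7-fold lower and within the Gibco serum 55.4-fold lower. tRNA-His was 19.1-fold and 11.1-fold lower in the same pairs, and the sum of the 463 other tRNA loci 2.88-fold and 19.7-fold lower. An exact two-sided permutation test on the Asp totals gave p = 0.333 (adjusted p = 0.8 over 12 tests of totals), the smallest p that 2 samples against 2 allow. That test ignored the shared sera, and the permutation test with the serum as block gave p = 0.5.

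Locus by locus, 15 of the 18 tRNA-Asp loci passed the filter of at least 10 counts in at least 2 serum-based samples, and no tRNA-Asn or tRNA-Tyr locus did. In 14 of the 15, both UF-dFBS samples were below both FBS samples, against 50.1% of all 363 loci tested and 0 of 10 tRNA-His loci. The exception was tRNA46-AspGTC, which was at 0 in FBS-2 and reached 10 counts only in UF-dFBS-1 and SBI-dFBS-2. edgeR's quasi-likelihood test without pairing called 0 of 363 loci (0%) after Benjamini-Hochberg adjustment, with 108 loci and 6 members at an unadjusted p under 0.05. The log2 changes of the 15 loci ran from -5.38 to -1.19 with a median of -5.04, beside medians of -3.63 over all loci tested, -4.24 over tRNA-His and -3.29 over the other tRNAs. DESeq2 with the same spike-in factors called 13 of the 15 lower, and 135 of 363 loci (37.2%).

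The shared sera of both media call for the serum as a block. It was fitted in edgeR on the 6 FBS, UC-dFBS and UF-dFBS samples, without SBI-dFBS and with loci filtered anew. What the block and the change of samples each did to the calls was not tested. The block fit called all 14 tested tRNA-Asp loci lower in UF-dFBS, against 213 of 322 loci (66.1%). Of the comparison tRNAs it called 1 of 10 tRNA-His and 147 of 235 other tRNA loci. tRNA48-AspGTC on chromosome 6 had the largest fall, -5.64 on the log2 scale (SE 1.61, adjusted p = 0.00155), followed by tRNA75 (-5.52), tRNA144 (-5.47), tRNA45 (-5.46) and tRNA78 (-5.43). tRNA6-AspGTC had the smallest, at -3.07 (SE 0.998, adjusted p = 0.00498). tRNA5-AspGTC fell by 4.87 (SE 1.55, adjusted p = 0.00421). In fits added after the data had been seen, the block fit called 1 tRNA-Asp locus (tRNA6-AspGTC) when either FBS sample was left out, with 27.1% of all loci called without FBS-1 and 43% without FBS-2. It called 14 without any 1 of the other 4 samples (57.6% and 56.2% of loci without UC-dFBS-1 or UC-dFBS-2, 77.8% and 68.8% without UF-dFBS-1 or UF-dFBS-2).

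Relative to all tRNA counts, no tRNA-Asp locus was called in UF-dFBS. The block fit with the tRNA total as library size, added after the data had been seen, called 0 of 14 tRNA-Asp loci (3 at an unadjusted p under 0.05) and 20 of 322 loci (6.21%), with a median change of -1.97 for tRNA-Asp and -0.14 for the other tRNAs. The share of tRNA-Asp in all tRNA counts was 0.0942% and 0.503% in UF-dFBS and 0.443% and 1.47% in FBS. Within the Sigma-Aldrich serum the UF-dFBS share was 0.213 times that of FBS and within the Gibco serum 0.342 times. Across sera the groups overlapped (exact permutation p = 0.667, adjusted p = 0.727, smallest possible p 0.333).

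**Figure D4:**
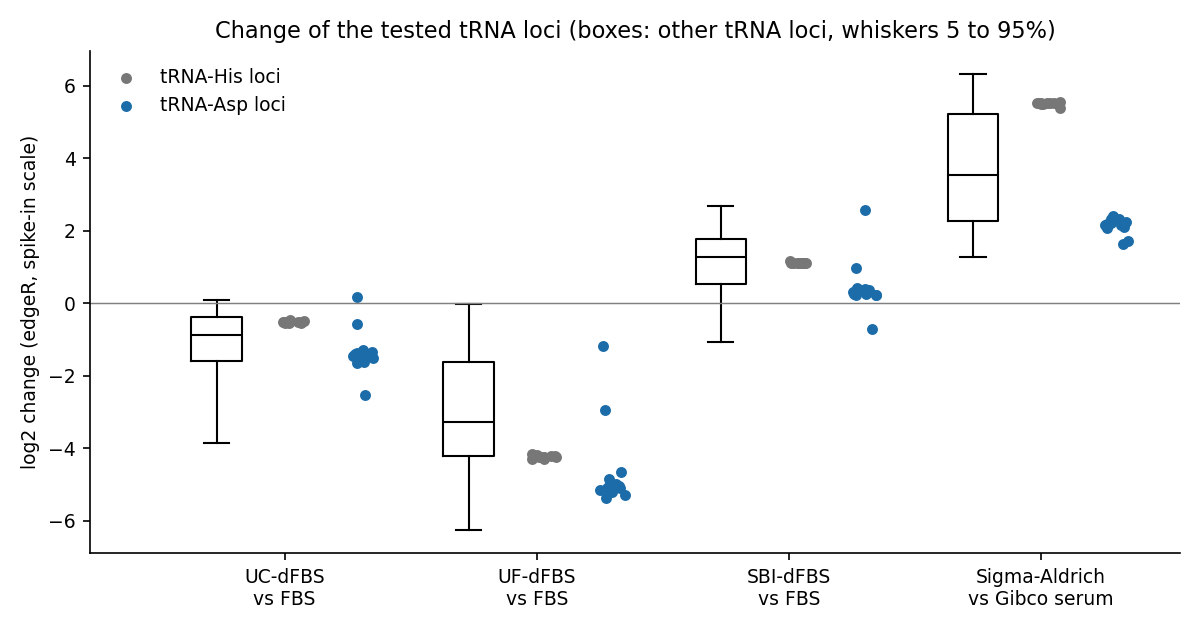
log2 change on the spike-in scale (edgeR, no serum block for the media, medium as a term for the suppliers) of the tested tRNA-Asp and tRNA-His loci as points, beside boxes for the other tRNA loci (median and quartiles, whiskers at the 5th and 95th percentiles). tRNA-Asp loci have medians of -1.47 in UC-dFBS, -5.04 in UF-dFBS and 0.34 in SBI-dFBS against FBS, and of 2.17 for Sigma-Aldrich over Gibco serum, below the medians of the other tRNA loci in each comparison.

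Ultracentrifugation left about the same fraction of tRNA-Asp in both sera. UC-dFBS held 754 ± 581 normalized counts (n = 2), 0.343 times FBS, with ratios of 0.336 in the Sigma-Aldrich and 0.369 in the Gibco serum. The ratios of tRNA-His in the same sera were 0.642 and 7.86, and those of the other tRNAs 0.752 and 1.65. The tRNA-Asp totals of FBS and UC-dFBS overlapped, with 1165 in UC-dFBS-1 above the 932 of FBS-2 (exact permutation p = 0.667). The shares of all tRNA counts did not overlap, with 0.219% and 0.266% in UC-dFBS below the 0.443% and 1.47% of FBS (exact permutation p = 0.333, adjusted p = 0.727). edgeR called 0 of 363 loci (0%) without the block, with 12 loci and no member at an unadjusted p under 0.05, and DESeq2 called 0 as well. The median change of the 15 tRNA-Asp loci was -1.47, beside -0.87 over all loci.

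With the serum block, 8 of 322 loci (2.48%) were called in UC-dFBS and none of the 14 tRNA-Asp loci. The largest change was that of tRNA5-AspGTC, -2.66 (SE 1.40, adjusted p = 0.462), which was also the single member of 15 with both UC-dFBS samples below both FBS samples, against 19.3% of all loci. In the added fits it was called when UF-dFBS-1 was left out of the block fit (adjusted p = 0.0197, 10.8% of loci called) or UF-dFBS-2 (adjusted p = 0.0224, 5.62%), at a change of -2.64 in each. The block fit on the tRNA total called 0 of 322 loci (0%), with 29 loci, tRNA5-AspGTC among them, at an unadjusted p under 0.05.

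tRNA-Asp totals in commercial SBI-dFBS overlapped with FBS and spread widely between lots, whereas the shares of all tRNA counts did not overlap. Its total was 2593 ± 2327 normalized counts (n = 2), 1.18 times FBS, and the second lot had 4.47 times the first (exact permutation p = 0.667). Its shares, 0.199% and 0.271%, were both below the 0.443% and 1.47% of FBS and differed 1.36-fold between lots (exact permutation p = 0.333, adjusted p = 0.727). edgeR called 0 of 363 loci (0%) and no member, with 4 loci and no member at an unadjusted p under 0.05, and DESeq2 called 0 on spike-in factors. No tRNA-Asp locus had both SBI-dFBS samples below both FBS samples (5.23% of all loci) or above them (22.3%). The log2 changes ran from -0.71 for tRNA5-AspGTC to 2.57 for tRNA46-AspGTC, with a median of 0.34 beside 1.11 over all loci, and the median turned to -1.61 with TMM and -1.91 with the tRNA total as library size, again with 0 members called.

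On the spike-in scale tRNA-Asp was higher in the Sigma-Aldrich than in the Gibco serum in every medium, but the direction turned relative to all tRNA counts. The totals differed 3.72-fold in FBS, 3.39-fold after ultracentrifugation and 6.93-fold after ultrafiltration, beside 119-fold, 9.73-fold and 69.3-fold for tRNA-His and 4.82-fold, 2.20-fold and 33.0-fold for the other tRNAs. In all 14 tRNA-Asp loci tested the Sigma-Aldrich sample was the higher in each of the 3 media, as in 85.7% of the 280 loci tested. edgeR with medium as a term called 174 of 280 loci (62.1%), among them 10 of 10 tRNA-His loci (median 5.52) and 153 of 208 other tRNA loci (median 3.53), but 0 of 14 tRNA-Asp loci (1.63 to 2.40, adjusted p from 0.0591 to 0.158, 5 at an unadjusted p under 0.05). The exact permutation test on the totals gave p = 0.4 (3 samples against 3, smallest possible p 0.1).

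These supplier calls depended on the method. DESeq2 on spike-in factors called all 14 tRNA-Asp loci higher in Sigma-Aldrich serum (80.4% of loci called), and edgeR called 11 of 13 without UF-dFBS-1 (56.2%) and 12 of 14 without UF-dFBS-2 (66.8%). Without the count filter edgeR called 1 member, tRNA46-AspGTC (15.2% of loci). With the tRNA total as library size the median of tRNA-Asp was -1.44 and with TMM -1.40, with 0 of 14 called and 1 at an unadjusted p under 0.05 in each (24.6% of loci called with the tRNA total and 39.3% with TMM). DESeq2 with its own size factors called tRNA5-AspGTC lower in Sigma-Aldrich serum (log2 change -1.56, adjusted p = 0.0402, 52.5% of loci called).

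tRNA-Asn, which carries asparagine, was close to the limit of detection in the serum-based samples. Its 24 genes, all 74 bases long, include 20 on chromosome 1, and the others lie on chromosomes 10, 13, 17 and 19. The deposited counts were 21 and 11 in FBS, 9 and 11 after ultracentrifugation, 35 and 25 after ultrafiltration, and 53 and 17 in SBI-dFBS, against 246 in StemPRO. StemPRO had the most tRNA-Asn counts of the 9 samples and the lowest total over all RNAs. No tRNA-Asn locus had more than 9 counts in any serum-based sample, and 14 of the 24 never exceeded 3 counts in any sample.

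On the spike-in scale the order of tRNA-Asn was different, because the factors differ 28.6-fold between samples. SBI-dFBS-1 was highest at 5.86 (4.39 to 7.67), followed by SBI-dFBS-2 at 4.50 and FBS-1 at 4.34. StemPRO followed at 2.28 (2.00 to 2.58), then UC-dFBS-2 at 1.61, FBS-2 at 1.48, UC-dFBS-1 at 1.38 and UF-dFBS-2 at 1.04. UF-dFBS-1 was lowest at 0.634 (0.441 to 0.881). Counting intervals of neighbours in this order overlapped except between FBS-1 and StemPRO. Both UF-dFBS samples were below both FBS samples, at 0.837 ± 0.288 against 2.91 ± 2.02 (n = 2 each, exact permutation p = 0.333, adjusted p = 0.8), but on the deposited counts they were higher. SBI-dFBS, at 5.18 ± 0.961, was above FBS in both samples (p = 0.333 by the same exact test, adjusted p = 0.8).

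The tRNA-Asn genes with the highest mean in FBS were tRNA1-AsnGTT (chr19:1383562-1383635, plus), tRNA7-AsnGTT on chromosome 13 (chr13:31248101-31248174, minus) and tRNA103-AsnGTT (chr1:149230570-149230643, minus). tRNA1-AsnGTT had 4 and 2 counts in FBS, 1 and 0 after ultracentrifugation, 5 and 5 after ultrafiltration, 7 and 2 in SBI-dFBS, and 40 in StemPRO. tRNA7-AsnGTT had 0 to 4 counts in the serum-based samples and 18 in StemPRO, and tRNA103-AsnGTT 0 to 6 and 28. tRNA47-AsnGTT (chr1:161510031-161510104, plus) was second in StemPRO, with 36 counts and at most 4 elsewhere. These are raw counts, and tRNA1 and tRNA47 were named for being highest in StemPRO. On the spike-in scale StemPRO was at 0.370 for tRNA1, 0.167 for tRNA7, 0.259 for tRNA103 and 0.333 for tRNA47, against FBS means of 0.547, 0.480, 0.341 and 0.206, so that it was lower for the first 3 and higher for tRNA47.

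tRNA-Tyr, which carries tyrosine and whose human genes carry an intron, was as scarce. Its genes span 88 to 94 bases and lie on chromosomes 2, 6, 8 and 14. The counts were 12 and 19 in FBS, 5 and 6 after ultracentrifugation, 73 and 20 after ultrafiltration, 32 and 5 in SBI-dFBS, and 80 in StemPRO. UF-dFBS-1 had the most of the serum-based samples, and 9 of the 14 genes had their highest serum count there. tRNA14-TyrATA (chr2:219110549-219110641, plus) had 1 count in FBS-2 and none in any other sample.

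After spike-in normalization tRNA-Tyr was 2.48 and 2.55 in FBS, 0.765 and 0.879 after ultracentrifugation, 1.32 and 0.833 after ultrafiltration, 3.54 and 1.32 in SBI-dFBS, and 0.740 (0.587 to 0.922) in StemPRO. UC-dFBS, at 0.822 ± 0.0810, and UF-dFBS, at 1.08 ± 0.346, lay below FBS at 2.51 ± 0.0505 in both samples (n = 2 each, exact permutation p = 0.333 for each, adjusted p = 0.8). For UF-dFBS the direction turned on deposited counts and in the share of tRNA counts, which was 3.38 times the FBS share in the Sigma-Aldrich and 6.18 times in the Gibco serum. Counting intervals of all samples next to each other in level overlapped. Between suppliers, the ratios of Sigma-Aldrich over Gibco serum were 0.972 in FBS, 0.870 after ultracentrifugation and 1.59 after ultrafiltration on this scale (exact permutation p = 1). The share of tRNA-Tyr in all tRNA counts was lower in the Sigma-Aldrich serum in each medium, at 0.0786, 0.211 and 0.0429 times the Gibco share (exact permutation p = 0.2, adjusted p = 0.727).

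By the mean in FBS, tRNA19-TyrGTA (chr14:21121258-21121351, minus), tRNA2-TyrGTA (chr2:27273650-27273738, plus) and tRNA14-TyrGTA (chr6:26569086-26569176, plus) came first. tRNA19-TyrGTA had 1 to 8 counts over all 9 samples and tRNA2-TyrGTA 0 to 8. tRNA14-TyrGTA had 13 counts in UF-dFBS-1, the highest of any tRNA-Tyr gene in serum, 12 in StemPRO and at most 5 elsewhere. In StemPRO the leading genes were tRNA17-TyrGTA on chromosome 14 (chr14:21128117-21128210, minus), with 19 counts there and 0 to 3 in the serum-based samples, and tRNA15-TyrGTA (chr6:26575798-26575887, plus), with 14 there and 0 to 9 in serum. tRNA14-TyrGTA ranked 3rd in both media, and the order in FBS rests on 2 to 4 counts per sample.

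StemPRO differed from the serum-based samples in the proportions of the families as well as in their levels. Of its 4590 tRNA counts, tRNA-Asp held 10.2% (9.35 to 11.1), tRNA-Asn 5.36% (4.74 to 6.05) and tRNA-Tyr 1.74% (1.40 to 2.16). In the 8 serum-based samples tRNA-Asp held 0.0942% to 1.47%, tRNA-Asn 0.000259% to 0.0311% and tRNA-Tyr 8.48e-05% to 0.0249%. The highest share of tRNA-Asn and of tRNA-Tyr in serum was that of UF-dFBS-2, the shallowest of these libraries. Ordered by share among 20 amino acids, tRNA-Asn was 9th in StemPRO and 15th to 20th in the serum-based samples, tRNA-Tyr 12th against 17th to 20th, and tRNA-Asp 3rd against 5th to 7th.

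tRNA-His went the other way. It held 6.61% to 63.7% of the tRNA counts in the serum-based samples and was among the 3 most abundant amino acids in each, but held 1.31% (1.02 to 1.68) in StemPRO, in 15th place. Relative to the FBS mean on the spike-in scale, StemPRO had 78.4% for tRNA-Asn, 29.5% for tRNA-Tyr, 0.197% for tRNA-Asp and 0.000221% for tRNA-His, and 0.0204% for the other tRNAs summed. The FBS samples differ, and against FBS-1 and FBS-2 singly StemPRO had 52.5% and 154% for tRNA-Asn, 29.9% and 29.1% for tRNA-Tyr, 0.125% and 0.465% for tRNA-Asp, and 0.000111% and 0.0133% for tRNA-His. By the FBS mean, tRNA-Asn came first and tRNA-His last of the amino acids. tRNA-Asp was 15th of 21 classes, with tRNA pseudogenes as a class, behind for example tRNA-Pro (0.890%) and tRNA-Lys (0.465%). The sum of the other tRNAs is weighted to abundant ones such as tRNA-Gly (0.00649%) and tRNA-Glu (0.00920%). As 1 sample, StemPRO allows no test.

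**Figure D5:**
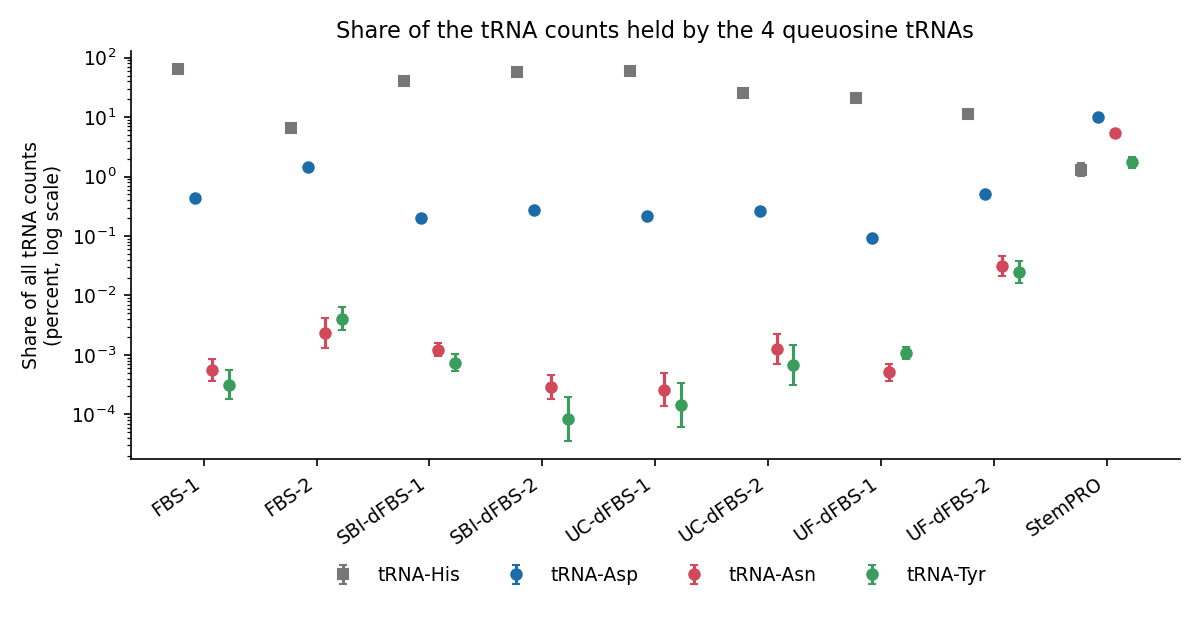
Share of all tRNA counts held by tRNA-Asp, tRNA-Asn, tRNA-Tyr and tRNA-His in each sample, on a log axis in percent, with Wilson 95% intervals. tRNA-His leads in the serum-based samples with 6.61% to 63.7% and is lowest of the 4 in StemPRO with 1.31%, where tRNA-Asp holds 10.2%, tRNA-Asn 5.36% and tRNA-Tyr 1.74%.

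On raw counts, single genes shifted with the shares. The raw count was highest in StemPRO for 11 of the 24 tRNA-Asn loci, 3 of the 14 tRNA-Tyr loci and 1 of the 18 tRNA-Asp loci. That is 15 of 56 members (26.8%), and 56 of the other 474 tRNA loci (11.8%), and these counts carry no test. The single tRNA-Asp locus was tRNA48-AspGTC on chromosome 1, with 2 counts in StemPRO. On the spike-in scale this was not so. There 1 of the 56 members was highest in StemPRO, tRNA97-AsnGTT on chromosome 1, whose only count in any sample lay there, and StemPRO was above the FBS mean for 9 tRNA-Asn, 3 tRNA-Tyr and 1 tRNA-Asp loci.

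Taking an RNA as present in a medium when any of its samples exceeded 1 normalized count, the threshold of the study, 13 members were detected in UF-dFBS and 15 in each other serum-based medium, all of them tRNA-Asp loci. In StemPRO tRNA5-AspGTC, at 1.27, was the single member above it. The paper reports no small RNA above this level in StemPRO, and the reason for the difference was not tested. The threshold corresponds to 3.78 counts in SBI-dFBS-2 and to 108 counts in StemPRO, so that no tRNA-Asn or tRNA-Tyr locus in StemPRO could pass it with the 40 counts or fewer that it had.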

How the data were processed

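EVs and RNA were isolated from 9 media samples with the exoRNeasy kit, and the RNA was sequenced after library preparation with molecular identifiers. The deposited counts are reads per small RNA locus that the authors collapsed by identifier and mapped without normalization, with cutadapt 1.11, Bowtie2 2.2.2 and GRCh37 per the submitters' processing notes. How reads with several matches were placed is not given in the sources used here. The second deposited table holds a spike-in normalized signal, for which the authors scaled the counts to external spike-ins by a linear fit, and the ratio of both tables was constant within a sample. The miRNA tables were used only for total counts.

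Family totals, shares (Wilson intervals) and exact two-sided permutation tests were computed with python 3.11.15, pandas 2.3.3 and scipy 1.17.1, with Benjamini-Hochberg adjustment over 12 tests of totals and 12 of shares. The permutation tests ignored the pairing by serum unless stated. All loci were fitted in edgeR 4.0.16 (R 4.3.3, quasi-likelihood F-test) with spike-in factors as library sizes, on the 8 serum-based samples (363 loci reaching 10 counts in 2 or more samples), or, for the suppliers, on 6 samples (280 loci reaching 10 counts in 3 or more) with medium as a term. An adjusted p under 0.05 was a call. Only the UF-dFBS fit without the block was run on simulated counts. These held no difference between sera, unlike the data. The run therefore cannot show how that fit, the block fits or the supplier fits behave on these samples. Alternatives were DESeq2 1.42.0, TMM, the tRNA total as library size, no filter, identical loci once, each sample left out, and the serum as block. The block fits for the media used the 6 samples without SBI-dFBS (322 loci reaching 10 counts in 2 or more).

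The serum pairs FBS, UC-dFBS and UF-dFBS by supplier label. The difference between sample 1 and sample 2 over 363 loci had a Pearson correlation of 0.743 for FBS with UC-dFBS, 0.615 for FBS with UF-dFBS, 0.576 for UC-dFBS with UF-dFBS, and -0.561 to -0.461 for SBI-dFBS, whose lots are separate, with the others.

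Named with values were, per amino acid, the 3 loci highest in FBS and the 2 highest in StemPRO, up to 5 called members per comparison and direction, and members with another anticodon. The members and lists were chosen with earlier results of these data known. StemPRO entered no fit.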

Additional observations from a re-analysis of the deposited data

Results flagged for a closer look

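The tRNA-Asn total moved in opposite directions in the sera after ultracentrifugation. On the log2 scale UC-dFBS minus FBS was -1.65 in Sigma-Aldrich serum (from 21 to 9 counts) and 0.13 in Gibco serum (from 11 to 11 counts). Each serum had 1 pair of samples, and the difference between sera was not tested.

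The share of tRNA-Asn in all tRNA counts also moved in opposite directions after ultrafiltration, by -4.15e-05 percentage points in Sigma-Aldrich and by 0.0288 percentage points in Gibco serum. In the Gibco pair, UF-dFBS-2 had 80376 tRNA counts against 472050 in FBS-2. This difference was not tested either, and the part of depth in it was not tested.

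StemPRO, which entered no comparison with a test, held 468 counts of tRNA-Asp, 246 of tRNA-Asn and 80 of tRNA-Tyr. Each is above the 3 counts that an observed count of 0 allows.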

How the results depend on the processing

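Of the alternatives, 0 members were called in UC-dFBS or SBI-dFBS against FBS under TMM, the tRNA total, DESeq2, no filter, identical loci once or any sample left out without the block. In UF-dFBS 13 members were called by DESeq2 on spike-in factors and 14 with the replicate block, and leaving out 1 sample gave 0 without the block and 1 to 14 with it (the latter fits were added after the data had been seen). The block with a sample left out gave 0 to 1 in UC-dFBS. For the suppliers DESeq2 gave 14 on spike-in factors and 1 on its own, no filter gave 1, and leaving out a sample 0 to 12 (11 without UF-dFBS-1, 12 without UF-dFBS-2). The cause was not tested. The supplier fit without the replicate block called 0.

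On deposited counts the UF-dFBS minus FBS log2 difference turned to 0.96 for tRNA-Asn and 1.34 for tRNA-Tyr. Leaving out 1 sample gave these ranges of log2 differences of totals where the direction turned: tRNA-Asn in UC-dFBS -1.54 to 0.014, tRNA-Asp in SBI-dFBS -0.92 to 1.24, tRNA-Tyr in SBI-dFBS -0.92 to 0.49, and for the suppliers tRNA-Asn -0.53 to 0.85 and tRNA-Tyr -0.29 to 0.67. The shares in percentage points turned for tRNA-Asn in UC-dFBS (-0.00158 to 0.00020), UF-dFBS (-0.00093 to 0.0297) and SBI-dFBS (-0.00157 to 0.000206), and for tRNA-Tyr in UC-dFBS (-0.00361 to 9.59e-05), UF-dFBS (-0.0011 to 0.0227) and SBI-dFBS (-0.00361 to 9.78e-05). No test of these reached its threshold. The tRNA-Asp totals kept their direction in UC-dFBS (-2.45 to -0.56), UF-dFBS (-6.74 to -3.95) and between suppliers (0.46 to 3.52).

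At a threshold of 0.1 normalized counts, the detected members numbered 43 for FBS, 34 for UC-dFBS, 23 for UF-dFBS, 47 for SBI-dFBS and 27 for StemPRO. These numbers are not alike in reads. A single count passed this threshold in each FBS, UC-dFBS and SBI-dFBS sample, where it was worth 0.111 to 0.265 normalized counts. It did not pass in UF-dFBS (0.0181 and 0.0416) or StemPRO (0.00926). In UF-dFBS 8 remained above 1 normalized count without UF-dFBS-1. The tRNA-Asn and tRNA-Tyr totals rested on 5 to 73 counts in serum, which limits their precision.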

Other observations

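Among the amino acids, tRNA-Phe had 46 counts in StemPRO and 7 to 83 in the serum-based samples. Relative to the FBS mean on the spike-in scale, it was at 30.4% in StemPRO, between tRNA-Asn at 78.4% and tRNA-Tyr at 29.5%. tRNA-Cys followed at 7.67%. These were the 4 amino acids with the fewest tRNA counts in FBS-1, at 9 for Phe, 12 for Tyr, 21 for Asn and 56 for Cys.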
